A study of Mus musculus with 16 samples.

Results

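The genes described here are 10 adhesion G protein-coupled receptors, followed in whole gastrocnemius muscle of 16 mice. They were listed by name around Adgrg6, which was chosen by its difference between the same groups of mice. A gene was read from probe sets that carry its symbol alone in the platform annotation, and where a gene had several, the one with the highest mean over the 16 arrays was used. By this rule 9 of the 10 genes were measured, out of 22180 genes with such a probe set. Adgre5 was not analysed here, because its only probe set is annotated to a second gene as well. Of the 9, 8 lay above the median of the array in at least 8 of 16 mice and were tested among 13601 genes. Adgrl3 lay above it in 4 of 16 mice and was not tested.

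Adhesion G protein-coupled receptors carry a long extracellular part that binds matrix proteins or proteins on other cells, followed by a membrane-spanning receptor part. In most of them an autoproteolysis domain next to the membrane cuts the protein during its synthesis, and the stretch just behind the cut can act as a tethered agonist once the extracellular part is pulled away. The family therefore links contact with matrix and neighbouring cells to G protein signalling. In muscle its members belong to different cells: Adgrg6 (GPR126) is known as the receptor that Schwann cells need to form myelin, and endothelial and mesenchymal cells express it too. Adgrf5 (GPR116) and Adgrl4 (ELTD1) are known from the endothelium, the lining of blood vessels.

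The promoter sequences below are shown for the receptor that rose with FoxO deletion and for the pair whose levels went together from mouse to mouse. Each is the stretch of 250 bases before a RefSeq start in GRCm38.p6, given 5′ to 3′ on the gene's strand. Capitals mark AGGAAG, a form of the site bound by ETS factors, or its reverse complement CTTCCT. Other forms were not searched. The shorter GGAA, which each stretch shown also holds, is not marked. For Adgrf5, which has 2 listed starts, the first is shown. The second does not hold AGGAAG on either strand. Of the 12 stretches listed for 8 of the 10 members, 5 hold AGGAAG on either strand. These are those shown for Adgrf5 and Adgrl4 and 1 each of Adgrl1, Adgrl2 and Adgrl3.
Adgrg6, chr10:14545037-14545286, minus strand: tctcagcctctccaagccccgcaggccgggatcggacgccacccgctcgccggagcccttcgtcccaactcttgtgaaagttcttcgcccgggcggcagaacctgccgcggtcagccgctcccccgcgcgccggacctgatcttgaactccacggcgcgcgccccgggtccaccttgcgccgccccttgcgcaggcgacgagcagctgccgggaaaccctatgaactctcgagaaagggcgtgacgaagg
Adgrf5, chr17:43360181-43360430, plus strand: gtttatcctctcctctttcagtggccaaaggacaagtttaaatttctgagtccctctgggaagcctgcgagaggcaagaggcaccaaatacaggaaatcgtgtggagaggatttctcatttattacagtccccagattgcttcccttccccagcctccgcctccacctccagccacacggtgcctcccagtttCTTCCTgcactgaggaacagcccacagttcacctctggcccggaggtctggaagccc
Adgrl4, chr3:151437632-151437881, plus strand: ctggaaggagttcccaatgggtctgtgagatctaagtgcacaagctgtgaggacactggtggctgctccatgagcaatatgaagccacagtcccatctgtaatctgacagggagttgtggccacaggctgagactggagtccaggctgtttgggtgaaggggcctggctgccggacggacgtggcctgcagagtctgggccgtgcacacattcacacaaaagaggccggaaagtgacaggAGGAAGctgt
The FoxO element GTAAACA and the insulin response element CAAAACA, both searched on either strand, were found in none of these 3 stretches, nor in any of the 12 stretches that RefSeq lists for 8 of the 10 members. Of the 32851 stretches of this length listed there, 3.2% held the FoxO element, 5.6% the insulin response element and 29.5% AGGAAG. No match says only that these letters are not in these windows.

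All mice were male FVB/n, 16 weeks old, and carried loxP-flanked Foxo1, Foxo3 and Foxo4. The 8 deletion mice (HF KO) also carried Mx1-Cre, and the 8 controls (HF WT, called wild type in the labels) were Cre-negative littermates with the same floxed alleles. All received 3 injections of polyinosine:cytidine (pI:pC) at 4 to 5 weeks of age and ate a high-fat diet (58% fat, 25.5% carbohydrate, 16.4% protein) for 8 weeks from 7 to 8 weeks of age. The labels direct the deletion at the endothelium. Mx1 is an interferon-responsive promoter that is also active in other cells, such as those of liver and blood. Effects of Cre and of the deletion cannot be told apart.

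The array medians lay between 4.43 and 4.61 log2 units, and the number of arrays limits the precision. Deletion mouse 8 stood among the controls on the first principal component (-14.7, against 5.68 to 21.9 in the other deletion mice and -15.7 to -0.188 in the controls). Foxo1, Foxo3 and Foxo4 differed by 0.07 (SE 0.12), 0.50 (SE 0.14) and -0.24 (SE 0.10), none past the threshold (limma adjusted p of 0.804, 0.0762 and 0.236). For Foxo1 the sign turned on deletion mouse 4 (8.23, against 7.05 to 7.41 in the other 7), and without it the difference was -0.05 (SE 0.06). Whether their probe sets lie in the deleted exons is not known here. High Alb, above 9 log2 units, was seen in 2 controls and 4 deletion mice. The muscle identity of the samples showed in Ckm, Acta1 and the other muscle fibre markers, whose mean lay between 11.5 and 12.3 in every mouse. Levels below are log2 expression values, and a difference is the mean of the deletion mice minus that of the controls.

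Adgrg6 was higher in every deletion mouse than in any control. It encodes a receptor for type IV collagen, laminin-211 and the prion protein that signals through cyclic AMP. The controls ran from 5.22 to 6.01 with a median of 5.58, and the deletion mice from 6.09 to 6.90 with a median of 6.44. The highest control was mouse 1 and the lowest deletion mouse was mouse 8, and the gap between them was narrow. The means were 5.57 ± 0.26 and 6.50 ± 0.31 (SD, n = 8 each), a difference of 0.93 (SE 0.13, 95% interval 0.66 to 1.20), or 1.90-fold. Since the gene was picked for this rise, the values describe it and no test is given. Without deletion mouse 8 the difference was 0.99 (SE 0.13).

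**Figure D1:**
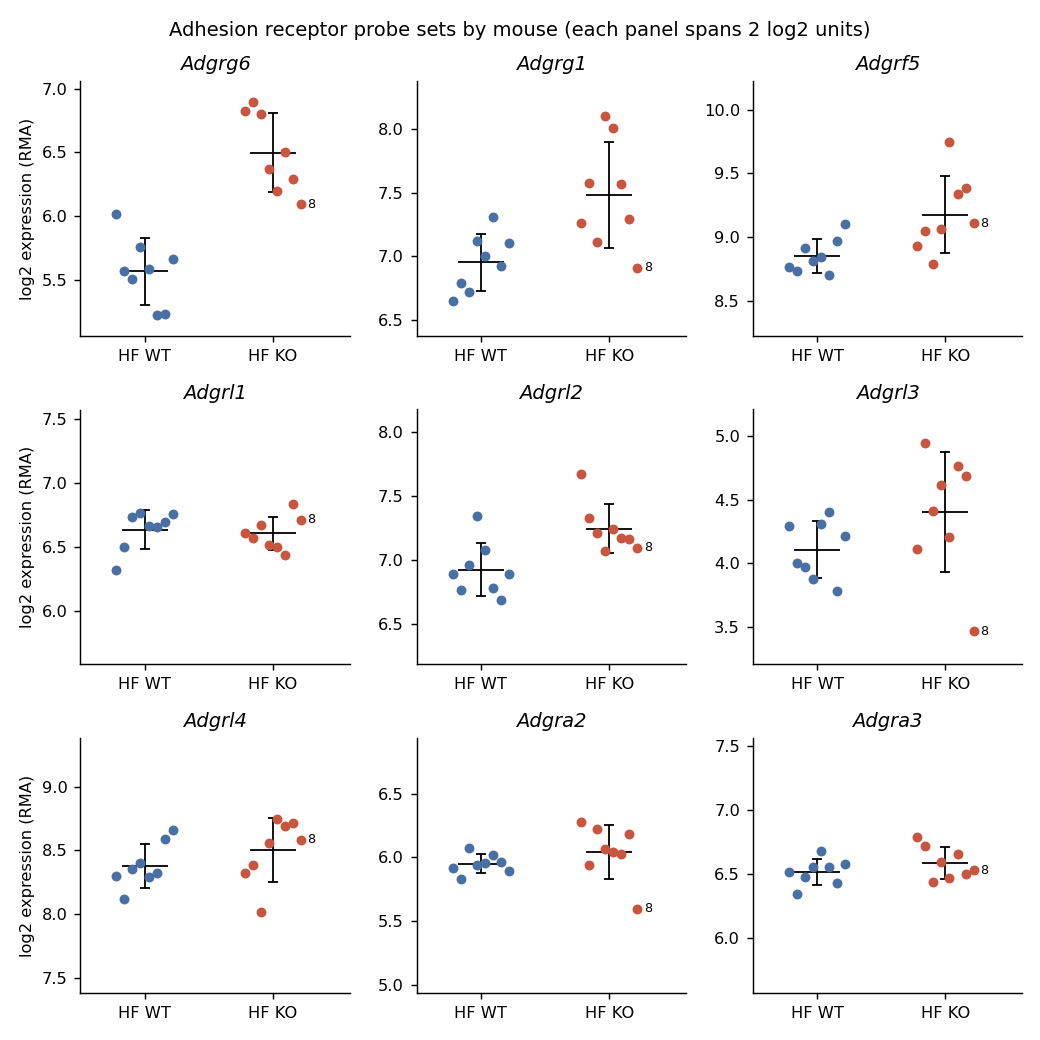
Log2 expression (RMA) of the 9 measured receptors in each mouse, blue for the 8 controls (HF WT) and red for the 8 deletion mice (HF KO), with group means and SD as bars and deletion mouse 8 numbered. Each panel spans 2 log2 units, so distances can be compared between panels but heights cannot. In the Adgrg6 panel the deletion mice begin at 6.09 and the controls end at 6.01, whereas the groups overlap in the other 8 panels.

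None of the other 7 members tested passed the threshold that marks a change here. Over all genes, 249 of 13601 (1.83%) passed a limma adjusted p under 0.05. Those higher in the deletion mice were 1.53% of the genes tested and those lower 0.301%. Among the 8 tested members Adgrg6 was the 1 that passed, and the rule had chosen it for that contrast, so nothing is read from this count. The differences of the 8 ran from -0.03 to 0.93 with a median of 0.22, and 7 were above 0. Over all genes tested the median was 0.00 and 50.2% were above 0. Groups did not overlap for 0.353% of genes tested, or 0.243% with the deletion mice higher, and among the members for Adgrg6 alone.

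Adgrg1, or GPR56, belongs to the same subfamily as Adgrg6. It binds collagen III and transglutaminase 2, and is known from muscle precursor cells, cytotoxic lymphocytes and the developing brain. The controls ran from 6.65 to 7.31 (median 6.96) and the deletion mice from 6.91 to 8.10 (median 7.43). The groups overlapped, with 4 of 8 deletion mice above every control and mice 4 and 5 the highest. The difference was 0.53 (SE 0.15, 95% interval 0.21 to 0.84) with a limma adjusted p of 0.0841, above the threshold. It passed without deletion mouse 8 (0.61, limma adjusted p = 0.0210). It fell to 0.24 (SE 0.15) without the 6 mice with high Alb and to 0.33 (SE 0.17) without the 5 mice with high Schwann cell markers named further on.

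The endothelial receptors Adgrf5 and Adgrl4 did not pass the threshold, and neither did 11 of 24 markers of their cells. Adgrf5 ran from 8.70 to 9.10 in the controls (median 8.83) and from 8.79 to 9.75 in the deletion mice (median 9.09), and the upper 4 of its 8 deletion mice exceeded the whole control group. Its difference of 0.32 (SE 0.11, 95% interval 0.09 to 0.55) did not pass (limma adjusted p = 0.144). Adgrl4, a receptor of growing vessels with no settled ligand, ran from 8.12 to 8.66 (median 8.34) and from 8.02 to 8.74 (median 8.57). The groups overlapped, with 3 of 8 deletion mice above every control and deletion mouse 3 the lowest of all 16. The difference was 0.12 (SE 0.10, 95% interval -0.09 to 0.34, limma adjusted p = 0.562).

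By comparison 13 of 24 endothelial markers tested were higher and 0 lower at limma's threshold, beside 1.53% and 0.301% of all genes tested. The median difference of the 24 was 0.44. The adhesion molecule Pecam1 rose by 0.40 (SE 0.09, limma adjusted p = 0.0253) and the junction protein Cdh5 by 0.58 (SE 0.10, limma adjusted p = 0.00617). The 11 that did not pass lay between -0.08 (Sox18) and 0.52 (Cldn5), with Kdr at 0.08. Sox18, Cldn5 and Kdr were named after their values were seen. The count of 13 rested on the mice used. It was 1 without the mice with high Alb and 1 without those with high Schwann cell markers. When 1 mouse was left out it was 5 (without deletion mouse 6) to 15. Whether the 2 receptors differ from these markers was not tested. In whole muscle, more cells of a type and more RNA per cell cannot be told apart.

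Adgrf5 and Adgrl4 went up and down together. After each group's mean was taken away, Adgrl4 was the gene most like Adgrf5 among the 13601 genes tested, with a Pearson r of 0.84 and a Spearman rho of 0.87 over 16 mice. The r was 0.85 within the controls, 0.85 within the deletion mice and 0.85 without the 2 mice farthest from the median of Adgrf5. Since the gene was found by ranking, this is a description and no p is given. Wscd1, Lmtk2, Cyyr1 and Epas1, the hypoxia-inducible factor HIF-2α of endothelium, came next, at r between 0.79 and 0.81. For Wscd1 and Lmtk2 the r fell to 0.57 and 0.54 without the 2 farthest mice.

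**Figure D2:**
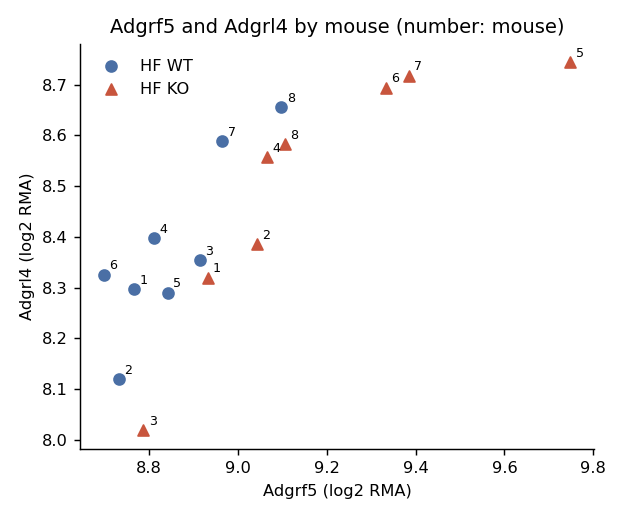
Adgrf5 against Adgrl4 (both log2 RMA), 1 point per mouse with its number, circles for controls and triangles for deletion mice. Controls 7 and 8 lie at the upper end of their group for both genes and deletion mouse 3, at 8.79 and 8.02, at the lower end of its own.

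The latrophilins Adgrl1, Adgrl2 and Adgrl3 bind teneurins and FLRT proteins on neighbouring cells. Adgrl2 ran from 6.69 to 7.35 in the controls (median 6.89) and from 7.07 to 7.67 in the deletion mice (median 7.19). Deletion mouse 1 was the 1 animal above every control, since control 4 was high in its group. The difference was 0.32 (SE 0.10, 95% interval 0.12 to 0.52) and did not pass (limma adjusted p = 0.0989). It passed without control 4 (0.38, limma adjusted p = 0.0335) and was 0.17 (SE 0.10) without the mice with high Alb. Adgrl1 differed by -0.03 (SE 0.07, 95% interval -0.19 to 0.13, limma adjusted p = 0.879), with ranges of 6.32 to 6.76 and 6.44 to 6.84. Control 1 was the lowest of the 16 and deletion mouse 7 the highest.

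Adgrl3, below the array median in all 8 controls and in 4 of 8 deletion mice, read 4.11 ± 0.23 and 4.40 ± 0.47 (SD, n = 8 each). Deletion mice 2, 4, 6 and 7 were the highest of the 16, at 4.61 to 4.95, and deletion mouse 8 the lowest, at 3.47. These 4 mice are the ones with high Schwann cell markers described further on, and control 1, high for the same markers, read 4.29. A second Adgrl3 probe set lay below the median in all 16 mice, at a mean of 3.02 in both groups.

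Adgra2 (GPR124) is the partner of RECK in WNT7 signalling to the brain endothelium, and Adgra3 (GPR125) is its relative. Adgra2 ran from 5.83 to 6.08 in the controls (median 5.95) and from 5.60 to 6.28 in the deletion mice (median 6.05), which lay to both sides of the control range. The difference was 0.09 (SE 0.08, 95% interval -0.08 to 0.26, limma adjusted p = 0.579), and 0.16 without deletion mouse 8, the lowest. Adgra3 differed by 0.07 (SE 0.07, 95% interval -0.07 to 0.21, limma adjusted p = 0.616), from 6.34 to 6.68 and from 6.44 to 6.79.

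**Figure D3:**
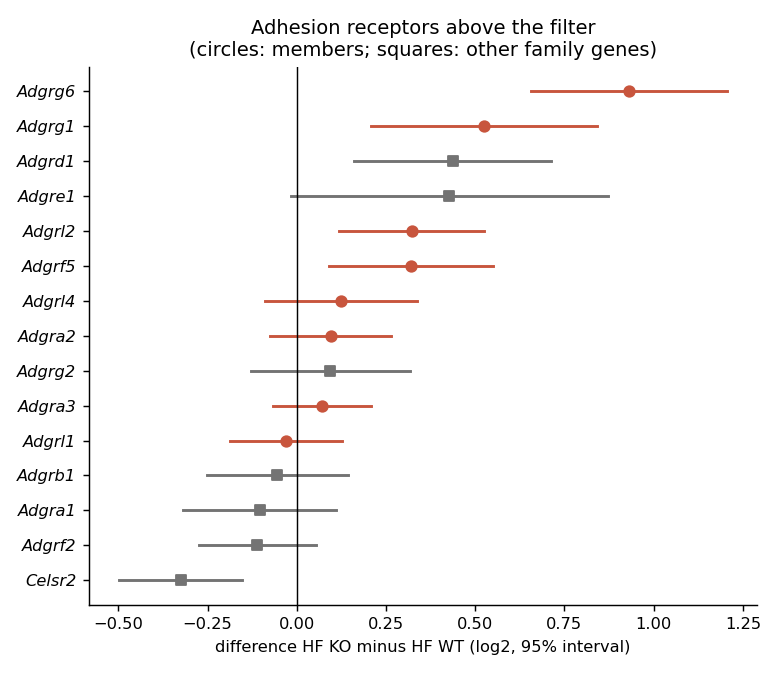
Differences (deletion minus control, log2) with 95% intervals for the 15 family genes above the filter, circles for members and squares for the rest, ordered by size. Adgrg6 stands at 0.93 at the top and Celsr2 at -0.32 at the bottom. Adgrg6 was chosen for this difference, so its place in the order is a description.

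Across the wider family, 27 of 30 genes were measured and 15 tested, of which 1 rose (Adgrg6) and 1 fell, beside 1.83% called over all genes. Since Adgrg6 had been chosen for this contrast, nothing is read from the count. The median difference of the 15 was 0.09. Celsr2, an atypical cadherin of planar cell polarity with a receptor part of this family, fell by 0.32 (SE 0.08, limma adjusted p = 0.0488). It ran from 5.72 to 6.20 in the controls and from 5.30 to 5.70 in the deletion mice, so the groups did not overlap, as for 0.110% of genes tested in that direction. Its call was lost in 15 of 16 fits that left out 1 mouse, with a limma adjusted p of at most 0.103, and in 7 of 11 other settings. Adgrd1, Adgre1 and Adgre4 were picked after their values were seen. Adgrd1 (GPR133) differed by 0.44 (SE 0.13, limma adjusted p = 0.0989), with 6 of 8 deletion mice above every control, and passed without deletion mouse 8 (0.53, limma adjusted p = 0.00846). Adgre1, the macrophage antigen F4/80, differed by 0.43 (SE 0.21, limma adjusted p = 0.305), with deletion mice 1 and 3 the highest at 6.64 and 7.03, and by 0.14 (SE 0.15) without them.

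Adgre4, a receptor of myeloid cells, did not reach the filter. The controls read 3.10 to 4.01 and the deletion mice 3.91 to 4.82, and 7 of 8 deletion mice exceeded the whole control group. All 8 controls and 5 of 8 deletion mice lay below their array median, so no difference or test is given.

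Ligands were examined next, since Adgrg6 and its relatives are receptors for matrix. The median difference of 31 tested ligands and partners was 0.06. At limma's threshold 4 of them rose and 0 fell, beside 1.53% and 0.301% of all genes tested. Col4a1 and Col4a2, the chains of the common type IV collagen of basement membranes, are among them. Col4a1 ran from 6.84 to 7.80 in the controls (median 7.19) and from 7.10 to 8.34 in the deletion mice (median 8.09), a rise of 0.73 (SE 0.17, limma adjusted p = 0.0304). Col4a2 ran from 6.20 to 7.28 (median 6.61) and from 6.53 to 7.75 (median 7.51), a rise of 0.77 (SE 0.18, limma adjusted p = 0.0335). For both, 6 of 8 deletion mice exceeded the whole control group, while deletion mouse 8 lay within the control range. Each call was kept in 6 of 16 fits without 1 mouse.

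Flrt2, of the FLRT family of latrophilin ligands, rose by 0.58 (SE 0.12, limma adjusted p = 0.0215), with 7 of 8 deletion mice above every control, and kept its call whichever single mouse was left out. Lamb1, the laminin β1 chain that pairs with the α2 chain in laminin-211, was higher by 0.49 (SE 0.12), at a limma adjusted p of 0.0450 that was held in 2 of 16 such fits. Lama2, which encodes the α2 chain, differed by 0.10 (SE 0.07, limma adjusted p = 0.498). The laminin gene Lamc1 differed by 0.29 (SE 0.08, limma adjusted p = 0.0817), and neither passed. Col4a2, Lamb1, Lama2 and Lamc1 were named after their values were seen. Flrt1, of the same family, differed by -0.31 (SE 0.13, limma adjusted p = 0.214) and Fndc4, a secreted ligand of Adgrf5, by -0.15 (SE 0.09, limma adjusted p = 0.420). No ligand passed when the mice with high Alb, with high Schwann cell markers or with high macrophage markers were left out, fits that hold fewer mice. The difference of Flrt2 in these 3 fits was 0.54 to 0.57, that of Col4a1 0.48 to 0.79, that of Col4a2 0.50 to 0.81 and that of Lamb1 0.33 to 0.47.

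**Figure D4:**
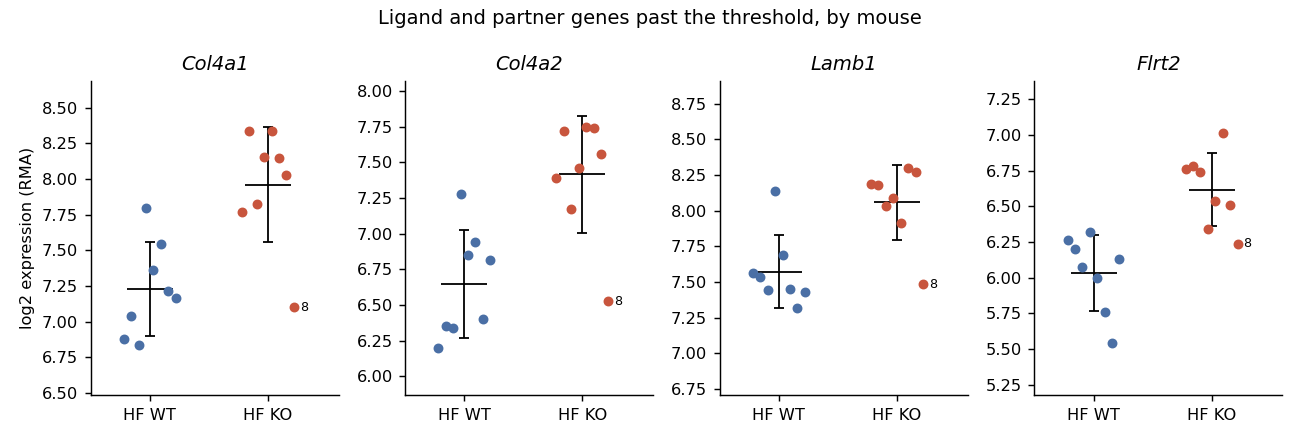
Log2 expression (RMA) of the 4 ligand and partner genes past the threshold, by mouse, with group means and SD as bars and deletion mouse 8 numbered. Deletion mouse 8 is the lowest of its group in all 4 panels, at 7.10 for Col4a1 and 6.53 for Col4a2.

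None of the 30 tested G protein and effector genes passed the limma threshold, although 11 had an unadjusted p under 0.05 (17.3% of all genes did). Among those higher in the deletion mice the smallest p belonged to Gnai2 and Plcb4. Gnai2, an inhibitory α subunit of cyclic AMP signalling, differed by 0.32 (SE 0.08, limma adjusted p = 0.0533). Plcb4, a phospholipase C, differed by 0.27 (SE 0.08, limma adjusted p = 0.0841). Among those lower the smallest p belonged to the adenylyl cyclases Adcy2 and Adcy9. Adcy2 differed by -0.32 (SE 0.09, limma adjusted p = 0.0801) and Adcy9 by -0.17 (SE 0.07, limma adjusted p = 0.237). Other adenylyl cyclases, named after their values were seen, lay on the higher side, with Adcy4 at 0.29 (SE 0.11), Adcy6 at 0.21 (SE 0.08), Adcy7 at 0.17 (SE 0.10) and Adcy5 at 0.02 (SE 0.08). The cyclases, which make cyclic AMP, lay on both sides of 0, and none passed.

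Cell type markers were set beside Adgrg6 mouse by mouse, whether or not the cells are known to carry it. The mean of 11 Schwann cell markers ran from 5.39 to 6.58 in the controls and from 5.53 to 6.54 in the deletion mice. The median difference of the 11 was 0.25, with 9 above 0 and 2 below. Of the 11, 0 passed and 2 had an unadjusted limma p under 0.05, beside 1.83% and 17.3% of all genes tested. These 2, named after their values were seen, were Pmp22 at 1.03 (SE 0.33, limma adjusted p = 0.126) and Mal at 1.12 (SE 0.48, limma adjusted p = 0.237). By the list mean, control 1 (6.58) and deletion mice 2, 4, 6 and 7 (6.45 to 6.54) were high. The myelin protein gene Mbp followed, at 6.70 in control 1 and 6.42 to 6.82 in those deletion mice. Its difference was 0.35 (SE 0.23, limma adjusted p = 0.460). Control 1 also had the highest Adgrg6 of its group. Among the deletion mice Adgrg6 was 6.29 to 6.90 in the 4 with high Schwann cell markers and 6.09 to 6.82 in the other 4. Without these 5 mice the Adgrg6 difference was 0.97 (SE 0.15, 7 against 4 mice). The part of Schwann cell content in the Adgrg6 values was not tested.

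The macrophage and leukocyte markers ran from 5.88 to 6.54 in the controls and from 6.14 to 7.33 in the deletion mice. Their median difference was 0.43. At limma's threshold 4 of 17 were higher and 0 lower, beside 1.53% and 0.301% of all genes tested. The count was 0 without the mice with high Alb, 0 without those with high Schwann cell markers and 2 to 5 when 1 mouse was left out. Ptprc, which encodes CD45, was higher by 0.73 (SE 0.17), at a limma adjusted p of 0.0397 that stayed under the threshold in 3 of 16 fits without 1 mouse, and Csf1r of macrophages differed by 0.63 (SE 0.20, limma adjusted p = 0.122). Deletion mice 1 and 3 were the highest for these markers, at 7.08 and 7.33, and were, with mouse 2, the highest for Adgrg6. Mice 1 and 3 were also the highest of the 16 for the mean of the fibroblast and fibro-adipogenic markers, at 9.30 and 9.34. By that mean the other deletion mice lay at 8.35 to 8.99 and the controls at 8.27 to 8.99, and 0 of 12 of these markers passed. Without deletion mice 1 and 3, the Adgrg6 difference was 0.83 (SE 0.13, 8 against 6 mice). It was 0.80 (SE 0.16, 6 against 4 mice) once those with high Alb were left out. Tendon markers went the other way, with 3 of 8 lower, beside 0.301% of all genes tested. Their list means were 7.60 to 8.23 in the controls and 7.13 to 7.72 in the deletion mice. The part of macrophage, fibroblast and tendon content in these values was not tested.

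**Figure D5:**
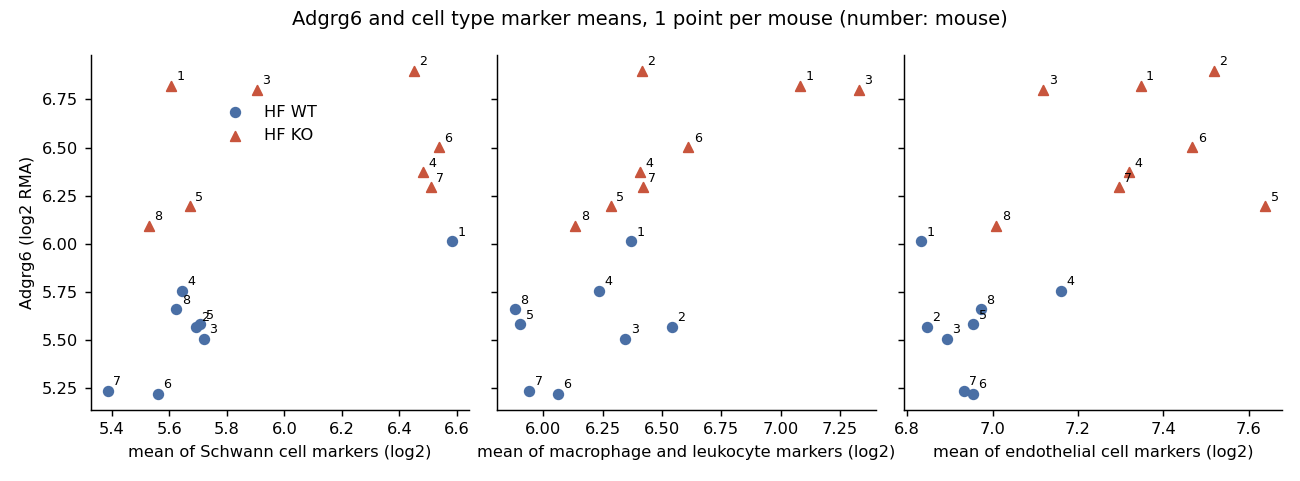
Adgrg6 (log2 RMA) against the mean of Schwann cell, macrophage and leukocyte, and endothelial markers, 1 point per mouse with its number, circles for controls and triangles for deletion mice. In the Schwann cell panel control 1 lies far to the right of the other controls and the deletion mice form a left and a right set of 4, with Adgrg6 at 6.09 to 6.82 and 6.29 to 6.90. In the macrophage panel deletion mice 1 and 3 lie farthest right.

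The members were also compared with each other within the groups. Of the 28 pairs among the 8 tested members, 3 had a Pearson r over 0.5 over 16 mice after the group means were taken away, and 1 was under -0.5. Besides Adgrf5 with Adgrl4 these were Adgra3 with Adgrl2 (0.60) and Adgrg6 with Adgrl2 (0.56), and on the negative side Adgrg6 with Adgrl4 (-0.55). By r with Adgrg6, Adgrl2 ranked 678 among the genes tested. The share of all gene pairs past these cutoffs was not computed, so nothing is read from the counts. These are descriptions over shared arrays, with no p. The genes most like Adgrg6 by the same measure were Ostf1 (0.88), Pdik1l (0.86), Pcdhb17 (0.85), Plce1 (0.85) and Shmt1 (0.84), with rank correlations of 0.83 to 0.86. Without the 2 mice farthest from the median of Adgrg6 these r values lay between 0.79 and 0.84. Of the 5, Ostf1 also rose with deletion (0.36, SE 0.08, limma adjusted p = 0.0234), and the others did not pass.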

How the data were processed

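RNA from 16 gastrocnemius muscles, 1 array per mouse, was measured from 250 ng of total RNA per the labels' protocols. The authors deposited 1 log2 value for each probe set and mouse. The submitters' processing notes name RMA and oligo, without versions, and neither array design nor build was stated in what was used here. RMA gives the arrays a like distribution of values.

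Of 41345 probe sets, 23521 carried 1 symbol, 1814 several and 16010 none. Symbols were updated through Entrez IDs to the RefSeq table of GRCm38.p6. Genes above the array median in at least 8 mice were fitted with group as the only term (limma 3.58.1, R 4.3.3, lmFit then eBayes), with Benjamini-Hochberg adjustment over 13601 genes and a threshold of 0.05. The labels number the mice as biological replicates. Marker list means are over the genes tested.

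The members, gene lists and alternatives were chosen with earlier results of these data known. The genes named are the members, other family genes past the threshold, the 2 smallest p in each direction of the ligand and the G protein lists, the 5 genes most like Adgrg6 and Adgrf5, the FoxO genes and defining cell markers, beside those said to be picked after their values were seen. Alternatives were other filters, normalizations and variance models, Welch's test and omitted mice.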

Additional observations from a re-analysis of the deposited data

Results flagged for a closer look

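In 9 of 70 groups of 8 mice (35 genes in each group), 1 mouse lay far from the rest of its group by Dixon's criterion at 95%, where chance gives about 1 in 20. Deletion mouse 1 was high for Adgrl2, at 7.67 against 7.33 for the next. Deletion mouse 8 was low for Col4a1 (7.10, next 7.77), Col4a2 (6.53, next 7.17) and Lamb1 (7.48, next 7.91). It was also low for Fndc4 (4.50, next 4.98). Control 4 was high for Lamb1, at 8.14 against 7.69. Deletion mouse 4 was high for Foxo1 (8.23, next 7.41), control 1 high for Mbp (6.70, next 5.80) and control 5 low for Ptprc (5.10, next 5.61).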

How the results depend on the processing

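The difference of Adgrg6 stayed between 0.80 and 0.99 over 28 alternatives. All 28 were counted as kept because each moved by less than the gene's SD within groups. Most settings could hardly do otherwise. Variance models and Welch's test leave the difference as it is, and 1 omitted mouse moves a group mean only a little. Nothing is read from this count. The side of the threshold was not judged for Adgrg6. Over 35 named genes, 838 of 970 alternative values were kept. These include the 28 of Adgrg6, and for the other genes kept means the same direction and side of the threshold. Of the rest, 109 lost the call, 14 gained it and 9, all of differences not past the threshold, changed sign. Without the mice with high Alb these were Adgrl1 (0.017), Adgra3 (-0.030), Adgra1 (0.10) and Foxo1 (-0.12), and without those with high Schwann cell markers Adgrg2 (-0.0018), Foxo1 (-0.054) and Mbp (-0.022). With 1 mouse left out Adgrb1 ran from -0.12 to 0.0013 (without control 6) and Foxo1 from -0.052 (without deletion mouse 4) to 0.12. The 249 genes changed became 137 with no filter, 68 by Welch's test and 505 at an adjusted p under 0.10. Adhesion receptor genes changed, 2 in the report, were 1 with a filter at the 75th percentile, 1 with trended and robust variance, 1 by Welch's test and 5 at 0.10. Members changed were 3 at 0.10. The 4 partner genes changed became 1 with no filter, 0 by Welch's test and 10 at 0.10. The causes were not tested. Centring arrays on their median moved the median difference of all genes to -0.05 and the share of higher calls from 83.5% to 65.3%, and quantile normalization gave 72.1%. With 1 mouse left out, genes changed ran from 107 (without deletion mouse 6) to 680 (without deletion mouse 8), adhesion receptors from 1 to 4, members from 1 to 2 and partners from 1 to 12, the highest counts being those without deletion mouse 8.

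Mouse numbers are shared by the groups, and the labels tie no number to a litter. After group means were removed, same-numbered pairs correlated at -0.08 to 0.25, 4 of 8 above 0.1. The rule took the numbers to pair the mice only if every pair lay above 0.1, so the main fit has no block. This cutoff cannot show that the mice are unpaired. With the replicate block 213 genes changed, of which adhesion receptors 1 and partners 3.

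Settings chosen after seeing the data left out mice. Without the 6 mice with high Alb 7 genes changed, of which adhesion receptors 0, members 0 and partners 0. Without the 5 with high Schwann cell markers the counts were 16 genes, 1 receptor and 0 partners, and without the 2 with high macrophage markers 135 genes, 1 receptor and 0 partners. These fits have fewer mice.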
